A study of Mus musculus with 9 samples.

Results

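The genes of glycolysis and glycogen metabolism were followed in RNA sequencing libraries of mouse cardiac ventricles. The set was given as 34 gene symbols covering glucose uptake, the steps from hexokinase to lactate, and the synthesis and breakdown of glycogen. Rows were found for 33 of them among the 24391 genes of the authors' table. Pkm2 had no row. The table lists Pkm, for which the RefSeq gene table gives Pkm2 as a synonym, and Pkm is described beside the set without being counted in it.

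Each of 3 groups held 3 libraries, all from C57BL/6 mice. The P6 group came from wild-type pups at postnatal day 6. Mice of the adult control group were 15 weeks old, positive for the alphaMHC Cre recombinase, and wild-type for beta-catenin. Mice of the stabilized beta-catenin group had the same age and the same Cre recombinase, and exon 3 of beta-catenin was deleted, which leaves a protein that escapes degradation. The alphaMHC promoter drives the recombinase in cardiomyocytes, so other cells of the ventricle are not its target. Both adult groups carry the recombinase and the P6 pups are not labelled as carrying it, and the adult libraries are marked as a re-analysis. Age, recombinase and set of libraries therefore change together between P6 and adult, and their parts cannot be told apart. The labels do not say that libraries came from separate animals, so p-values measure the spread between libraries, which may be technical.

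Glycolysis splits glucose into pyruvate in the cytosol, and lactate dehydrogenase converts pyruvate to lactate and back. Many of its steps are served by isozymes from separate genes, some typical of striated muscle and others found in most tissues. The newborn heart is known to lean on glycolysis and lactate, whereas the adult heart burns mainly fatty acids, takes up glucose under the control of insulin, and holds glycogen as a store.

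Assigned reads numbered 7467551 to 7913057 per library at P6, 15234366 to 21568022 in adult control and 14965316 to 23236129 with stabilized beta-catenin. Ctnnb1, the beta-catenin gene itself, had normalized counts of 8681, 9053 and 8333 at P6, of 7543, 7614 and 8369 in adult control, and of 8117, 8391 and 7626 with stabilized beta-catenin; a count over the whole gene does not show the loss of exon 3. Axin2, a feedback target of beta-catenin, read 489, 670 and 740 in the stabilized libraries against 50.8, 92.0 and 88.6 in adult control. The 33 genes together took 0.552% to 0.633% of the assigned reads at P6, 1.10% to 1.35% in adult control and 1.08% to 1.19% with stabilized beta-catenin.

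At P6 most of these transcripts stood lower than in the adult control ventricle. Of the 33 genes, 32 passed a filter that asked 3 libraries for 10 or more normalized counts, and Eno1 did not. By limma on log2(normalized count + 1), with p-values adjusted over all 13398 genes tested, 24 genes were lower at P6 and 5 were higher with the authors' size factors; the split was 20 and 8 under total-count scaling, and 13 and 12 relative to cardiomyocyte markers. With the authors' factors, 31.3% of all genes tested were lower and 31.2% higher, 62.5% in either direction. Under total-count scaling 17% were lower and 48% higher, and relative to cardiomyocyte markers 6.97% were lower and 74.3% higher. Aldoc reached the filter in its P6 libraries alone, and Gapdh and Pgam1 reached it in only 1 adult control library each. Of the 29 genes that passed within each group on its own, 24 were lower, 3 were higher and 2 were not called. The median log2 fold change of the 32 tested genes was -1.17, against 0.02 over all genes tested.

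These ventricles also differed in their cell type markers. The 8 cardiomyocyte markers, among them Myh6 and Tnnt2, summed to normalized counts of 546817 to 618921 at P6, 1065419 to 1136929 in adult control and 951297 to 1007537 with stabilized beta-catenin, and 6 of the 8 were lower at P6 than in adult control. Against adult control, 5 of 8 fibroblast, 6 of 7 endothelial and 8 of 8 cycling cell markers were higher at P6, 1 of 8 fibroblast markers was lower, and all 7 macrophage markers with a row were lower. Fibroblast markers summed to between 66059 and 84260 at P6 against 14321 to 18090 in adult control. Mural markers gave 3 higher and 2 lower of 7, erythroid markers 2 higher of 3 tested with 4 of 7 at 0 in every library, and skeletal muscle markers 2 lower of 4 tested. Ckm made up nearly all counts of the skeletal muscle list, with 14650, 15856 and 13452 at P6 and 48188, 31548 and 32618 in adult control. The other markers of that list stayed far below it, so the list says little about skeletal muscle cells. In bulk tissue fewer cells of a type and less RNA per cell cannot be told apart, and the part of these shifts in the results was not tested beyond the rescaling given further on.

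**Figure D1:**
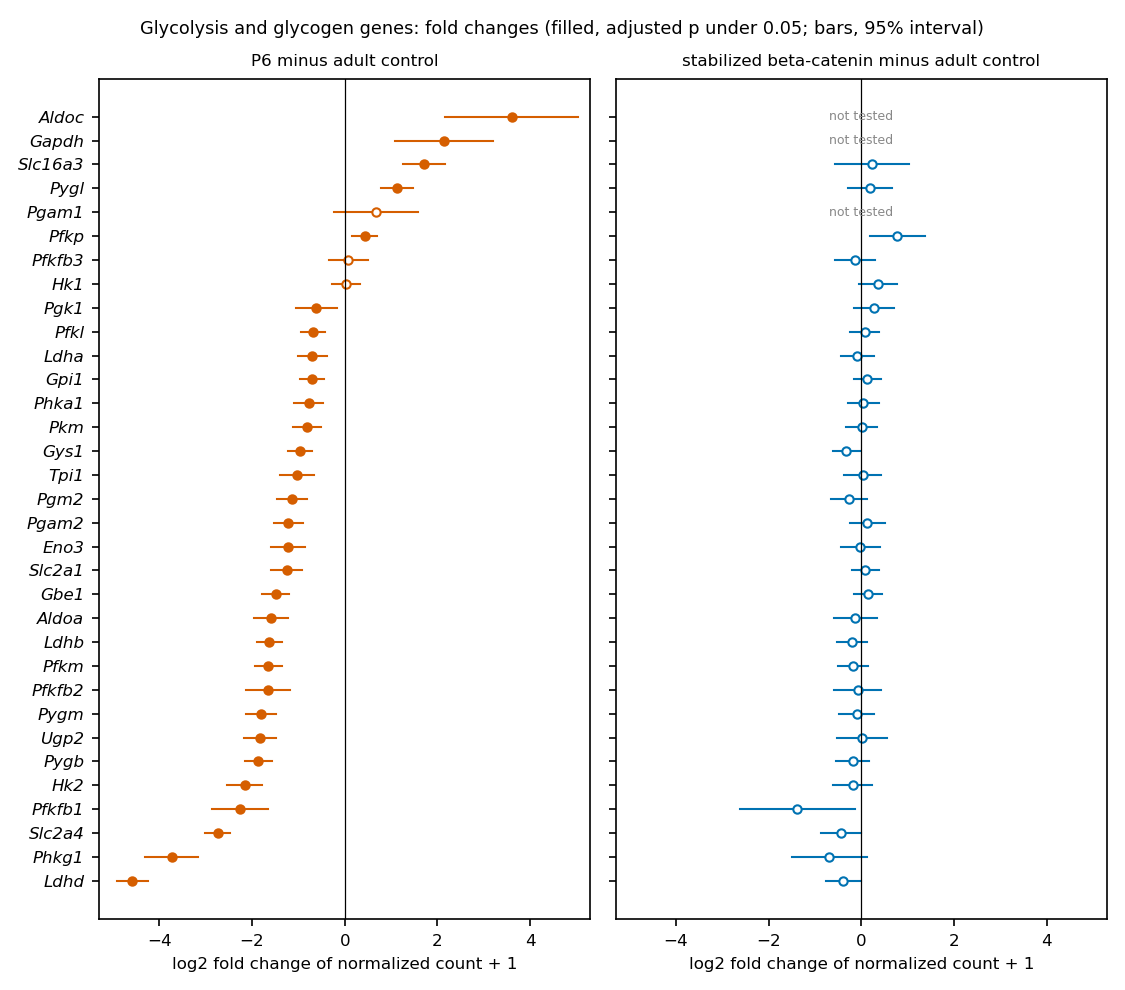
Log2 fold changes of the 32 tested glycolysis and glycogen genes and Pkm at P6 (left) and with stabilized beta-catenin (right), each against the same adult control libraries, with bars for the 95% interval and filled points for an adjusted p under 0.05 (n = 3 libraries per group). Values on the left run from -4.58 for Ldhd to 3.60 for Aldoc with the authors' factors, and on the right no point is filled.

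Glucose uptake was described by Slc2a4, the insulin-responsive transporter of muscle and fat, and Slc2a1, the basal transporter found in most cells. Slc2a4 had normalized counts of 1310, 1387 and 1256 at P6, of 9858, 8354 and 8338 in adult control, and of 8352, 5552 and 5973 with stabilized beta-catenin. All P6 libraries lay below all adult ones, and Slc2a4 was 6.69-fold lower at P6 than in adult control (log2 fold change -2.74, SE 0.12, adjusted p = 1.13e-06, limma). Slc2a1 was far scarcer, at 138, 126 and 163 at P6, 314, 353 and 352 in adult control, and 345, 384 and 352 with stabilized beta-catenin. It was lower at P6 by 1.25 on the log2 scale (SE 0.15, adjusted p = 1.21e-04). Its P6 libraries too were below all adult ones. Per kilobase of exon, Slc2a1 made up 8.55% ± 1.43 (SD, n = 3) of the sum of both transporters at P6 and 3.23% ± 0.484 in adult control.

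Hexokinase traps glucose in the cell as glucose phosphate. Hk1 is the form of most tissues and Hk2 the insulin-regulated form of muscle and heart. Hk1 had normalized counts of 2959, 2878 and 3064 at P6, 2491, 3227 and 3036 in adult control, and 2975, 4251 and 4099 with stabilized beta-catenin. The P6 libraries fell within the range of adult control, and the log2 fold change was 0.03 with a 95% interval of -0.26 to 0.33 (adjusted p = 0.841). Other scalings called Hk1 higher at P6, at 0.39 with quantile normalization (adjusted p = 0.0158; median of all genes -0.04), 0.46 with total-count scaling (median 0.45) and 1.10 relative to cardiomyocyte markers (median 1.10). Hk2 had 2166, 2159 and 1856 at P6, 7196, 10156 and 10483 in adult control, and 8849, 7196 and 8113 with stabilized beta-catenin. All P6 libraries were below all adult ones, a 4.45-fold lower level than in adult control (log2 -2.15, SE 0.17, adjusted p = 1.23e-05). Per kilobase of exon, Hk1 was 62.5% ± 2.71 of both hexokinases at P6, 26.9% ± 1.75 in adult control and 35.2% ± 6.47 with stabilized beta-catenin.

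The promoter windows of 4 genes that span this range of behaviour are shown, each reaching from 250 bases before to 50 bases after a RefSeq start site in build GRCm38.p6. Hk1 and Hk2 are the pair that parted at P6, Ldhd had the largest fold among the lower genes, and Slc16a3 was higher at P6. Capitals mark ACGTG, the core of the hypoxia response element, on either strand, so that CACGT is the same motif read on the other strand. The E-box CACGTG contains the motif on both strands and is in capitals in full. Of 2 Hk1 windows, the downstream one on the minus strand at chr10:62340372-62340671 is printed; the upstream one, at chr10:62379859-62380158, holds no ACGTG. The Hk2 window lies on the minus strand at chr6:82774405-82774704, that of Ldhd on the minus strand at chr8:111630287-111630586, and that of Slc16a3 on the plus strand at chr11:120948817-120949116.
Hk1: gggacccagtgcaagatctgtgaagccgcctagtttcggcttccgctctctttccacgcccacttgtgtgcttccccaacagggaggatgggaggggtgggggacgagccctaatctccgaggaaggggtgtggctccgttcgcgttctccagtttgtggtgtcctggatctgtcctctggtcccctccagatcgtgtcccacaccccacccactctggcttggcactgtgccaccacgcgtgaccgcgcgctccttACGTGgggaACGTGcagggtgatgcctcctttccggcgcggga
Hk2: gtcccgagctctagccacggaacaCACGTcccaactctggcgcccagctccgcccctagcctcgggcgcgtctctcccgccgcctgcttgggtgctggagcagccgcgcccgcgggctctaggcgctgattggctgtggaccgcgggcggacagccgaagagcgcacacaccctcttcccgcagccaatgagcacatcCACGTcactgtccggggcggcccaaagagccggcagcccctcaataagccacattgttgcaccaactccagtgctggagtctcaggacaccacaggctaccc
Ldhd: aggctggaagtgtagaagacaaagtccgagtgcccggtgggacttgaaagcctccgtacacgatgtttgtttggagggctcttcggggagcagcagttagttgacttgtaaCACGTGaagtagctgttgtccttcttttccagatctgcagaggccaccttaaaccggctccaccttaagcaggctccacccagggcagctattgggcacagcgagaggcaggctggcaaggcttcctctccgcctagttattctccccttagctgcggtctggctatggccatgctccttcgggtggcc
Slc16a3: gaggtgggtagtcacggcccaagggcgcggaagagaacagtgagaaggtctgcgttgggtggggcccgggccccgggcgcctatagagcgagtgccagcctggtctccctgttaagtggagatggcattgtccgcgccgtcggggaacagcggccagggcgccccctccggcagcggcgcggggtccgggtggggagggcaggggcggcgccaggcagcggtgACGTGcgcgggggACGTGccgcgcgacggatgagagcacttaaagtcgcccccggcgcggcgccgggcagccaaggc
The printed Hk1 window and those of Hk2 and Slc16a3 each hold 2 separate copies of ACGTG, and the Ldhd window holds a single CACGTG. No gene without ACGTG is shown, so the printed windows do not stand for the set in this respect.

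Promoter windows could be matched for 31 of the 34 genes, many with more than 1 start site. ACGTG on either strand occurred in at least 1 window of 18 of these 31 genes (58.1%), against 21.8% of the 27025 genes with windows of the same length. CACGTG occurred in 5 of them (16.1%, against 8.09%), namely Ldha, Ldhd, Pfkfb2, Pfkfb3 and Pfkm. CTTTGNT, the core bound by the TCF/LEF partners of beta-catenin, occurred in 5 of 31 (16.1%, against 20.9%), AAGGTCA of the estrogen-related receptors in 3 (9.68%, against 5.38%), and the MEF2 motif in 2 (6.45%, against 4.23%). The set held 48 windows, and a gene with more windows has more chances of a match. Per window the shares were 45.8% against 19.6% for ACGTG and 10.4% against 7.15% for CACGTG. They were 12.5% against 18.6% for CTTTGNT, 6.25% against 4.72% for AAGGTCA and 4.17% against 3.69% for the MEF2 motif. Genes with ACGTG stood on both sides of the age comparison, Slc16a3 and Pygl among the higher ones and Hk2, Pygm and Ldhd among the lower ones. A match is a string of letters in a window and not a bound site.

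Past hexokinase, Gpi1 interconverts glucose and fructose phosphates, and phosphofructokinase commits the sugar to glycolysis. Gpi1 read 2222, 2649 and 2483 at P6, 3925, 3923 and 4108 in adult control and 4097, 4707 and 4314 with stabilized beta-catenin. It was lower at P6 than in adult control without overlap (log2 -0.70, SE 0.12, adjusted p = 8.50e-04), a call lost under total-count scaling (-0.28) and turned to higher relative to cardiomyocyte markers (0.37, adjusted p = 0.0243; median of all genes 1.10). Pfkm, the muscle subunit, had normalized counts of 5004, 5501 and 4741 at P6, 15476, 16114 and 16037 in adult control and 14681, 13260 and 13904 with stabilized beta-catenin. It was 3.13-fold lower at P6 (log2 -1.65, SE 0.13, adjusted p = 1.20e-05), and the stabilized libraries fell between the other groups.

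The other subunits are the liver type Pfkl and the platelet type Pfkp. Pfkl ranged from 1349 to 1518 at P6, from 2105 to 2446 in adult control and from 2176 to 2634 with stabilized beta-catenin, and was lower at P6 (log2 -0.69, SE 0.12, adjusted p = 9.31e-04), again not under total-count scaling (-0.26, adjusted p = 0.137) and higher relative to cardiomyocyte markers (0.38, adjusted p = 0.0155). Pfkp went the other way, with 929, 1002 and 1093 at P6 against 804, 726 and 714 in adult control. All P6 libraries were above all adult controls, at a modest log2 fold change of 0.43 (SE 0.12, adjusted p = 0.0117), which passed the threshold neither without P6 library 3 (0.37, adjusted p = 0.0639) nor with all 3 groups in 1 fit (adjusted p = 0.117). Per kilobase of exon, Pfkp made up 10.2% ± 1.18 of the subunit transcripts at P6, 2.86% ± 0.218 in adult control and 5.63% ± 2.30 with stabilized beta-catenin, while Pfkm made up 73.4% ± 1.34, 87.1% ± 1.04 and 83.0% ± 3.29.

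The bifunctional enzymes of the Pfkfb family make and remove fructose bisphosphate signals that set phosphofructokinase activity. Pfkfb2, the heart form, read 1057, 903 and 830 at P6, 2056, 3529 and 3398 in adult control and 3214, 2483 and 2609 with stabilized beta-catenin. It was lower at P6 by 1.65 on the log2 scale (SE 0.21, adjusted p = 1.79e-04), with adult control library 1 the lowest of the adults. Pfkfb1, known as the form of liver and skeletal muscle, was rare, with 39.7, 21.7 and 38.6 at P6 and 153, 192 and 132 in adult control (log2 -2.25, SE 0.27, adjusted p = 1.24e-04). Pfkfb3, the inducible form of proliferating cells, had 147, 165 and 135 at P6, 125, 178 and 125 in adult control and 114, 136 and 137 with stabilized beta-catenin. Its groups overlapped, and the log2 fold change of 0.08 had a 95% interval of -0.34 to 0.49. Beside the lower Pfkfb2, Pfkfb3 formed 11.9% ± 1.60 of the sum of Pfkfb1, Pfkfb2 and Pfkfb3 per kilobase at P6 and 3.77% ± 0.753 in adult control. Pfkfb4, outside the set, was left out of that sum. It read 97.3, 80.9 and 84.7 at P6 and 94.2, 63.7 and 58.3 in adult control.

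**Figure D2:**
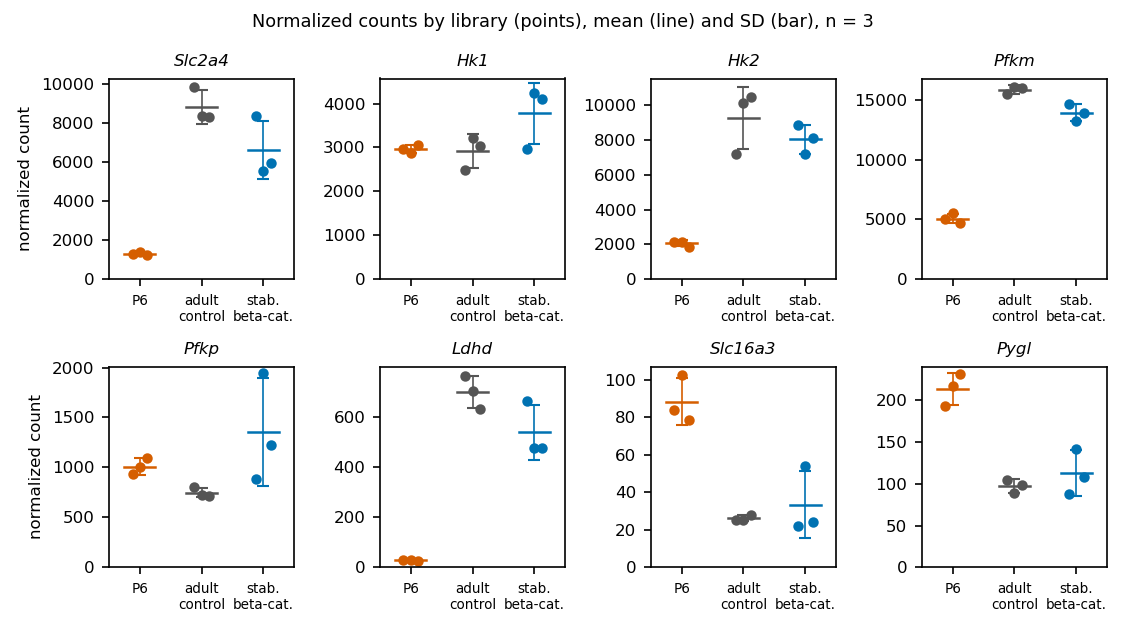
Normalized counts of 8 genes in every library (points), with the mean (line) and SD (bar) of each group of 3. Slc2a4, Hk2, Pfkm and Ldhd are lowest in the P6 libraries, Slc16a3 and Pygl are highest there, and Hk1 overlaps between P6 and adult control; 1 stabilized library stands above the rest for Pfkp.

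Further along the pathway the abundant muscle enzymes were lower at P6 with the authors' factors, each with its P6 libraries below all adult ones; relative to cardiomyocyte markers this held for Aldoa, not for Eno3, Pgam2 or Tpi1. Aldoa, the muscle aldolase, read 8348, 9655 and 8835 at P6 against 32032, 23940 and 25950 in adult control and 26590, 27758 and 20575 with stabilized beta-catenin. It was 3.03-fold lower at P6 than in adult control (log2 -1.60, SE 0.16, adjusted p = 5.00e-05). Eno3, the muscle enolase, read 8888, 10019 and 8568 at P6, 25430, 19961 and 19299 in adult control and 24039, 19871 and 19680 with stabilized beta-catenin. Its log2 fold change at P6 was -1.23 (SE 0.16, adjusted p = 2.15e-04). Pgam2, the muscle phosphoglycerate mutase, had 2738 to 3025 at P6, 5739 to 7664 in adult control and 6309 to 8160 with stabilized beta-catenin (log2 -1.22 at P6 against adult control). Tpi1, triose phosphate isomerase, ranged from 2489 to 2878 at P6, 4630 to 6799 in adult control and 4995 to 6121 with stabilized beta-catenin (log2 -1.03). Pkm, which makes pyruvate, read 4679 to 5320 at P6, 7927 to 9715 in adult control and 8204 to 9289 with stabilized beta-catenin, lower at P6 by 0.81 on the log2 scale with the authors' factors but not past the threshold under total-count scaling (-0.38, adjusted p = 0.0551).

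Aldoc, the brain aldolase, was rare and higher at P6. It had 27.4, 41.9 and 37.1 at P6, 3.33, 0 and 5.04 in adult control and 4.01, 3.42 and 5.33 with stabilized beta-catenin, so that only the P6 libraries reached 10. The log2 fold change of 3.60 (SE 0.64, adjusted p = 0.00117) describes a gene that passed the filter through the P6 group alone.

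The counts of Gapdh, Pgk1, Pgam1 and Eno1 are uncertain. Gapdh, one of the most abundant transcripts of most tissues, was listed at 42.5, 52.0 and 31.2 at P6, 19.2, 6.07 and 5.04 in adult control and 9.02, 6.85 and 15.4 with stabilized beta-catenin. These are far below Aldoa and Tpi1, the neighbouring steps. Eno1 was listed at 0 in all 9 libraries, which allows up to 3 reads each as far as counting error goes, and Eno1b reached at most 13.6. Pgam1 had 17.8, 8.67 and 13.4 at P6, 10.8, 7.08 and 5.76 in adult control and 5.01, 4.28 and 6.52 with stabilized beta-catenin. Pgk1 ranged from 110 to 156 at P6, 177 to 252 in adult control and 208 to 291 with stabilized beta-catenin. These 4 genes had the largest shares of 50-base transcript windows found word for word in another gene of the GENCODE vM21 annotation, 58.4% for Gapdh, 68.0% for Pgk1, 41.5% for Pgam1 and 49.5% for Eno1, and Gapdh shared windows with 209 pseudogenes. Of the 33 genes compared, Pkm included, 9 had at least 20% of their windows in another gene. Besides the 4 above, these were Pfkfb2 (24.97%), Gpi1 (24.5%), Pkm (23.7%), Phkg1 (22.2%) and Ldhb (20.99%). The remaining genes shared 15.4% or less, and Hk2, Aldoc, Slc2a4, Pgam2, Eno3, Slc16a3, Ldhd, Gbe1 and Phka1 shared none. How reads with several matches were counted is not given in the sources used here. The part of shared sequence in the counts of these 9 or the remaining genes was not tested. The fold changes of Gapdh (2.14, adjusted p = 0.00354), Pgk1 (-0.61, adjusted p = 0.0228) and Pgam1 (0.67, adjusted p = 0.170) at P6 against adult control are therefore those of the listed counts, and that of Pgk1 missed the threshold without P6 library 1 (-0.45, adjusted p = 0.0941) or adult control library 3 (-0.61, adjusted p = 0.0588), and turned to higher relative to cardiomyocyte markers (0.46, adjusted p = 0.0479).

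**Figure D3:**
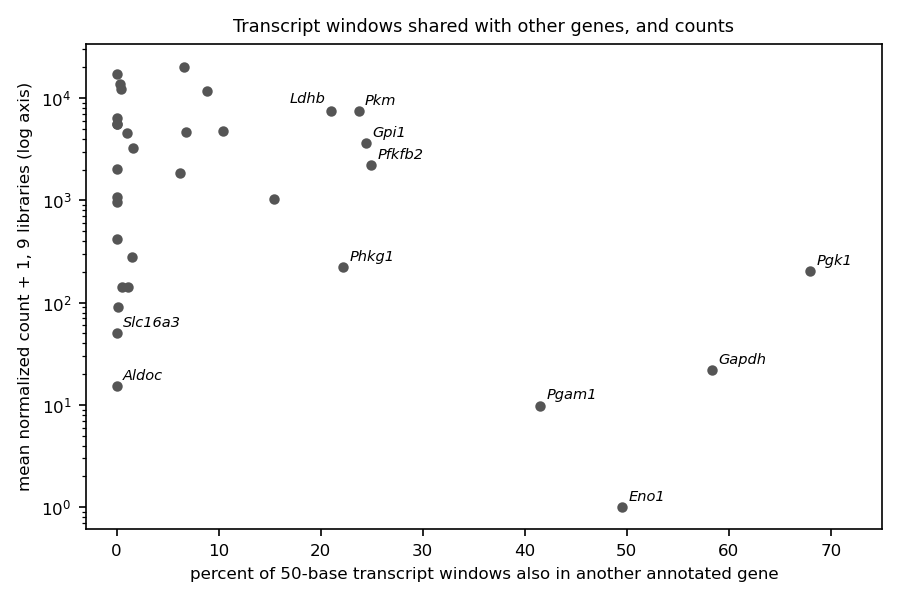
Share of each gene's 50-base transcript windows that occur in another annotated gene (horizontal axis, percent) against its mean normalized count over 9 libraries (vertical axis, log scale), for 33 genes including Pkm. Pgk1, Gapdh, Eno1 and Pgam1 lie to the right of 40%, with means of 203, 20.8, 0 and 8.81 normalized counts.

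Lactate handling showed the widest contrasts. Ldha and Ldhb encode the muscle-type and heart-type subunits of lactate dehydrogenase, and Ldhd a mitochondrial dehydrogenase of the mirror-image D-lactate. Ldhd had normalized counts of 27.4, 30.4 and 26.7 at P6, of 762, 701 and 632 in adult control, and of 663, 476 and 474 with stabilized beta-catenin. It was 23.9-fold lower at P6 than in adult control (log2 -4.58, SE 0.15, adjusted p = 3.69e-07), with no overlap. Ldhb read 3196, 3418 and 3264 at P6, 10743, 9678 and 10089 in adult control and 9833, 8270 and 8425 with stabilized beta-catenin (log2 -1.63 at P6 against adult control, SE 0.12, adjusted p = 8.61e-06). Ldha read 3261, 3612 and 3505 at P6, 6473, 4932 and 5516 in adult control and 5613, 5566 and 4732 with stabilized beta-catenin, a smaller difference (log2 -0.70, SE 0.14, adjusted p = 0.00202) that missed the threshold under total-count scaling (-0.27) and quantile normalization (-0.16) and turned to higher relative to cardiomyocyte markers (0.38, adjusted p = 0.0217). Per kilobase, Ldhb supplied 58.1% ± 0.637 of both subunits at P6 and 72.5% ± 1.68 in adult control. Slc16a3, the exporter of lactate in glycolytic cells, stood out on the other side, with 83.6, 103 and 78.7 at P6, 25, 25.3 and 28.1 in adult control, and 22.1, 53.9 and 24.3 with stabilized beta-catenin. It was 3.28-fold higher at P6 than in adult control (log2 1.71, SE 0.20, adjusted p = 1.17e-04), and among stabilized libraries the second was the highest. Slc16a1, a lactate transporter outside the set, was far more abundant and went the other way with the authors' factors. Its counts were 2205, 2632 and 2884 at P6, 9487, 8012 and 11065 in adult control, and 14829, 11459 and 11346 with stabilized beta-catenin.

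For glycogen synthesis, Ugp2 makes the activated glucose, Gys1 strings it into chains and Gbe1 adds the branches. Ugp2 had normalized counts of 1547, 1854 and 1574 at P6, 6351, 4886 and 6668 in adult control and 7903, 6332 and 4278 with stabilized beta-catenin. It was 3.58-fold lower at P6 (log2 -1.84, SE 0.15, adjusted p = 1.66e-05), and its stabilized libraries spanned the whole range of adult control. Gbe1 read 367, 412 and 465 at P6, 1221, 1072 and 1192 in adult control and 1448, 1270 and 1140 with stabilized beta-catenin (log2 -1.49, SE 0.13, adjusted p = 2.27e-05). Gys1, the muscle glycogen synthase, read 1214, 1253 and 1225 at P6, 2159, 2508 and 2588 in adult control and 1923, 1884 and 1974 with stabilized beta-catenin. It was lower at P6 by 0.97 on the log2 scale (SE 0.12, adjusted p = 1.32e-04), and the 3 groups did not overlap one another. Pgm2, named here by the symbol in the authors' table since annotations exchange the symbols Pgm1 and Pgm2, had 1885 to 2094 at P6, 3714 to 5167 in adult control and 3126 to 4154 with stabilized beta-catenin (log2 -1.13, adjusted p = 1.81e-04).

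Glycogen phosphorylase releases glucose phosphate from glycogen, and phosphorylase kinase switches it on. Pygm, the muscle form, read 4713, 4946 and 4429 at P6, 14171, 18106 and 17355 in adult control and 15476, 14528 and 15994 with stabilized beta-catenin, 3.51-fold lower at P6 than in adult control (log2 -1.81, SE 0.14, adjusted p = 1.38e-05). Pygb, the brain form, was lower too, with 4971, 5530 and 5192 at P6, 18376, 19038 and 19592 in adult control and 18827, 15786 and 15532 with stabilized beta-catenin (log2 -1.86, SE 0.13, adjusted p = 6.23e-06). Both stood well below the adult libraries at P6, without overlap. Pygl, the liver form, ran opposite, with 193, 217 and 232 at P6, 105, 89.0 and 98.6 in adult control and 88.2, 142 and 108 with stabilized beta-catenin. It was 2.18-fold higher at P6 than in adult control (log2 1.12, SE 0.15, adjusted p = 2.47e-04), yet per kilobase it formed 2.11% ± 0.218 of the phosphorylase transcripts at P6 and 0.276% ± 0.0445 in adult control.

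Of the phosphorylase kinase genes, Phkg1, the catalytic subunit of muscle, read 27.4, 36.1 and 20.8 at P6, 461, 286 and 406 in adult control and 329, 129 and 299 with stabilized beta-catenin. It was 13.3-fold lower at P6 (log2 -3.73, SE 0.25, adjusted p = 6.03e-06), and no P6 library came near an adult one. Phka1, the regulatory subunit of muscle, ranged from 697 to 736 at P6, 1032 to 1390 in adult control and 1205 to 1355 with stabilized beta-catenin (log2 -0.78, adjusted p = 0.00108).

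How far these directions hold depends on what the libraries are scaled to. Total-count scaling moved the median of all genes at P6 against adult control to 0.45, and 20 genes of the set were then lower and 8 higher, since Hk1 (0.46), Pfkfb3 (0.50) and Pgam1 (1.06) joined the higher ones. Of all genes, 17% were lower and 48% higher on that scale. Scaling to the geometric mean of the 8 cardiomyocyte markers, an alternative chosen after seeing the data, moved the median of all genes to 1.10, with 13 genes of the set lower and 12 higher, where 6.97% of all genes were lower and 74.3% higher. With the authors' factors the markers themselves ran from -1.82 to -0.58 at P6 against adult control. This scale therefore depends on the markers chosen, and how well they stand for cardiomyocyte content was not tested. Relative to these markers Ldhd (-3.53), Phkg1 (-2.68), Slc2a4 (-1.67), Pfkfb1 (-1.20), Hk2 (-1.08), Pygb (-0.79), Ugp2 (-0.77), Pygm (-0.74), Pfkfb2 (-0.58), Pfkm (-0.57), Ldhb (-0.55), Aldoa (-0.53) and Gbe1 (-0.42) remained lower at P6. Under the same scaling Gpi1 (0.37), Pfkl (0.38), Pgk1 (0.46) and Ldha (0.38) turned from lower to higher, while Eno3 (-0.15), Pgam2 (-0.14), Slc2a1 (-0.19), Tpi1 (0.04), Gys1 (0.10), Pgm2 (-0.06) and Phka1 (0.29) passed the threshold in neither direction. All of these were below the shifted median of all genes.

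**Figure D4:**
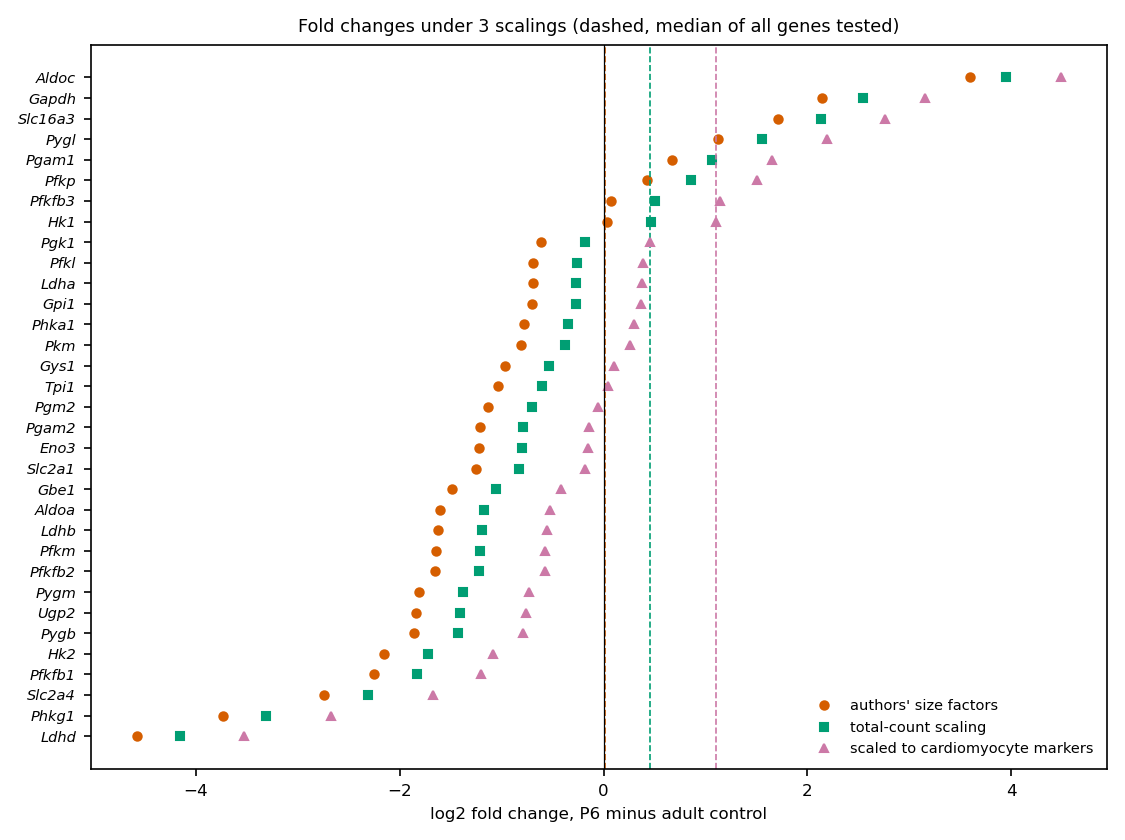
Log2 fold changes at P6 against adult control for the 32 tested genes and Pkm under the authors' size factors, total-count scaling and scaling to cardiomyocyte markers, with dashed lines at the median of all genes under each (0.02, 0.45 and 1.10). The order of the genes is nearly the same in all of them, while the zero line cuts through the set at different genes.

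Ratios between isozymes within a library avoid the scaling factor but not a difference in cell types, whose part was not tested. For 11 of 12 pairs a log2 ratio of normalized counts + 1 was formed, the exception being Eno1 and Eno3. At P6 against adult control 9 of the 11 ratios did not overlap between groups, all of them higher at P6. The ratios are not separate evidence. Pfkm, Pfkfb2 and Pygm are each the second gene of more than 1 pair, and the fold changes of the single genes are given above. Among single genes, 70.3% of the 13398 tested did not overlap between these groups, so separation as such was common; the share among ratios of unrelated genes was not computed. Of the 9, the ratio of Aldoc to Aldoa depends on the pseudocount, since 1 adult control library had no Aldoc read, and that of Pgam1 to Pgam2 rests on uncertain Pgam1 counts. An exact two-sided permutation test of 3 against 3 libraries cannot fall below 0.1, and each of the 9 reached that value (0.165 after adjustment over 33 tests). The Hk1 to Hk2 ratio was 0.45, 0.41 and 0.72 at P6, -1.53, -1.65 and -1.79 in adult control and -1.57, -0.76 and -0.98 with stabilized beta-catenin. Its sign thus turned between P6 and the adult groups, and the difference of group means was 2.19 on the log2 scale. The Ldha to Ldhb ratio averaged 0.07 ± 0.04 (SD, n = 3) at P6 and -0.86 ± 0.12 in adult control. The differences of the other separated pairs were 1.49 for Slc2a1 to Slc2a4, 0.96 for Pfkl to Pfkm, 2.07 for Pfkp to Pfkm, 1.73 for Pfkfb3 to Pfkfb2, 5.20 for Aldoc to Aldoa, 1.89 for Pgam1 to Pgam2 and 2.93 for Pygl to Pygm. All 11 pairs were written with the form named for muscle or heart last or, for glucose uptake, the insulin-responsive one. In Ldha to Ldhb and Pfkfb1 to Pfkfb2 the first form is named for muscle as well. The order of writing therefore does not set the separated pairs apart. Pygb to Pygm (-0.05, exact permutation p = 0.7) and Pfkfb1 to Pfkfb2 (-0.60, p = 0.2) overlapped.

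**Figure D5:**
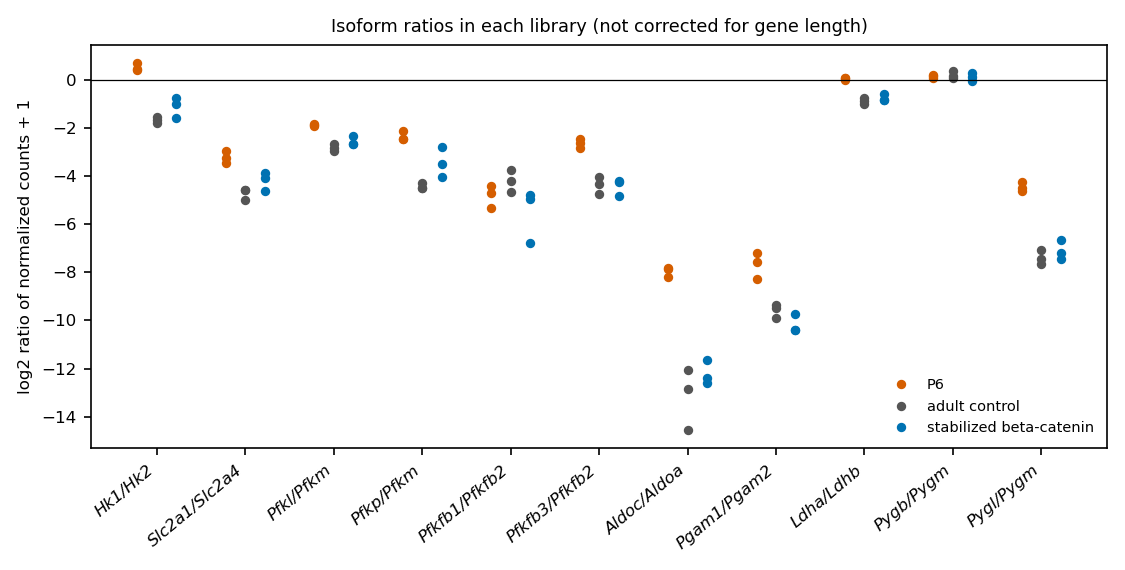
Log2 ratios of normalized counts + 1 for 11 isozyme pairs in each library of P6, adult control and stabilized beta-catenin (3 points per group, not corrected for gene length). In 9 pairs the P6 points lie above all adult control points, and for Hk1 to Hk2 they lie above 0 while every adult point lies below it.

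With stabilized beta-catenin against adult control, no glycolysis or glycogen gene passed the threshold by limma among the 29 tested, with Aldoc, Gapdh, Pgam1 and Eno1 below the filter. Of all 12971 genes tested 1.49% were higher and 0.308% lower, 1.8% in either direction, so a count of 0 of 29 lies near that background. Their median log2 fold change was -0.08, against 0.00 over all genes. At an unadjusted p under 0.05 limma gave 5 of the 29, Pfkp, Pfkfb1, Gys1, Ldhd and Slc2a4, edgeR gave 4 with none after adjustment, and DESeq2 gave 5 with 1 after adjustment. The shares of all genes at the unadjusted threshold were 12.8% by limma, 13% by edgeR and 12.4% by DESeq2, and 4.35% after adjustment by DESeq2, so these counts too lie near the background. Of the cell type lists, only the cycling cell list held called genes by limma, with 7 of 8 markers higher and sums of 1079 to 2062 against 361 to 464 in adult control; the part of these cells in the values was not tested. The erythroid sum was 78.7 to 351 against 465 to 776.

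The gene that DESeq2 called was Pfkp (log2 0.86, adjusted p = 0.0407). It read 886, 1948 and 1222 with stabilized beta-catenin and 804, 726 and 714 in adult control, so the groups did not overlap although the first stabilized library came close. By limma the log2 fold change was 0.78 (SE 0.26, 95% interval 0.19 to 1.37, adjusted p = 0.240). Pfkfb1 had the largest fold, with 117, 21.4 and 83.0 against 153, 192 and 132 and no overlap (log2 -1.39, SE 0.54, 95% interval -2.63 to -0.15, adjusted p = 0.333). Its second library was the lowest of the adults, at the P6 level. Gys1, given above, had all stabilized libraries below all controls (log2 -0.32, SE 0.13, adjusted p = 0.330), as did Pfkm (-0.19, SE 0.14, adjusted p = 0.686). The second stabilized library also had the highest Slc16a3 (53.9) and the lowest Phkg1 (129) of its group.

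Neither hexokinase passed the threshold with stabilized beta-catenin. Hk1 had a log2 fold change of 0.36 against adult control (95% interval -0.05 to 0.77, adjusted p = 0.469) and Hk2 of -0.19 (-0.61 to 0.24, adjusted p = 0.781). The Hk1 to Hk2 ratio averaged -1.11 ± 0.42 with stabilized beta-catenin and -1.66 ± 0.13 in adult control, and the first stabilized library lay among the controls (exact permutation p = 0.2). Slc2a4 had -0.44 (95% interval -0.86 to -0.01, adjusted p = 0.376) and Ldhd -0.39 (-0.77 to -0.01, adjusted p = 0.375). Of the 11 ratios, Pfkp to Pfkm (0.97) and Pfkfb1 to Pfkfb2 (-1.31) did not overlap between both adult groups. Both had the smallest exact permutation p of 0.1. The 2 of 11 are not read as a result, since 19% of all single genes tested did not overlap between these groups. The share among ratios of unrelated genes was not computed.

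The intervals show what remains possible for the abundant enzymes. The 95% interval of the log2 fold change with stabilized beta-catenin was -0.59 to 0.33 for Aldoa, -0.44 to 0.40 for Eno3, -0.53 to 0.12 for Ldhb, -0.47 to 0.27 for Pygm, -0.55 to 0.17 for Pygb and -0.53 to 0.56 for Ugp2. A missed threshold therefore leaves room for changes inside these bounds.

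Set against P6, the stabilized beta-catenin libraries gave 24 genes higher and 4 lower of the 31 tested with the authors' factors, where 36.5% of all 13367 genes were higher and 35.8% lower, 72.3% in either direction. Of the 29 genes that passed the filter in both groups on their own, 24 were higher, 2 were lower and 3 were not called, since Aldoc and Gapdh passed through the P6 libraries. Relative to cardiomyocyte markers 15 genes were higher and 10 lower, where 9.82% of all genes were higher and 71.9% lower and the median of all genes was -0.93. This comparison shares its P6 libraries with the first one and its stabilized libraries with the second, so it is not separate evidence. The lower genes were Aldoc (-2.79), Gapdh (-1.95), Slc16a3 (-1.48) and Pygl (-0.94). The largest differences upward were Ldhd (4.19), Phkg1 (3.04), Slc2a4 (2.31) and Hk2 (1.96). Pfkp (0.35), Pfkfb1 (0.87) and Pfkfb3 (-0.20) did not pass the threshold, and without the second stabilized library Pfkfb1 did (1.59, adjusted p = 0.00124). Pfkp did so without the first (0.62, adjusted p = 0.00662). Hk1 passed narrowly (0.33, adjusted p = 0.0400) although its groups overlapped, and it missed the threshold when P6 library 1, 2 or 3 was left out (0.33, 0.31 and 0.35) or without stabilized library 2 (0.24) or 3 (0.26). It was also lost in limma without trend (adjusted p = 0.0923) and with all groups in 1 fit (0.0759), and its sign turned under total-count scaling (-0.08). Of the 11 isozyme ratios, 9 were lower in all stabilized libraries than at P6, Aldoc to Aldoa and Pgam1 to Pgam2 among them with the limits given above, and 77% of all single genes tested did not overlap between these groups.

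Genes that work around the set were looked at in lists drawn up with the same knowledge of these data. Among other glycolytic isozymes and sugar handling genes, 6 of 15 tested were lower at P6 than in adult control and 2 were higher. Khk, ketohexokinase, which starts the breakdown of fructose, was lower by 1.93 on the log2 scale (SE 0.23, adjusted p = 1.23e-04).

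Of the other glycogen genes 11 of 20 tested were lower at P6 and 5 higher. Epm2a, which removes phosphate from glycogen, was lower by 2.38 on the log2 scale, and the glycogen-targeting subunits of protein phosphatase Ppp1r3a and Ppp1r3c were lower by 2.22 and 1.77. Pentose phosphate and hexosamine genes gave 4 lower and 2 higher of 12, with transketolase Tkt higher (0.98), and Uap1 (-0.89) and Rpia (-0.86) lower. Of 16 hypoxia-responsive genes tested, 8 were lower and 1 higher at P6, led by Bnip3 (-2.41), Egln1 (-2.28) and Egln3 (-1.59). Of 17 regulators of glucose metabolism, 5 were lower and 2 higher, with the factor Klf15 lower (-3.24), and the AMP-activated kinase subunit Prkag2 (1.33) and Myc (1.25) higher. These counts can be read against the 31.3% lower and 31.2% higher of all genes. Counts and fold changes of all 5 lists are with the authors' factors. Relative to cardiomyocyte markers the median of all genes at P6 moved to 1.10, and which list genes keep their direction there is not reported here.

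With stabilized beta-catenin against adult control, 1 gene of these 5 lists passed the threshold. The lists held 15, 19, 12, 16 and 17 tested genes, in the order given above. Of all 12971 genes tested, 1.8% passed in either direction, so 1 call lies near that background. Irs1, the insulin receptor substrate that links the receptor to glucose uptake, read 4365, 5520 and 5227 with stabilized beta-catenin, 1959, 2140 and 2079 in adult control and 1780, 1820 and 1981 at P6. Every stabilized library was above all others, and the log2 fold change against adult control was 1.28 (SE 0.14, adjusted p = 0.00451, limma).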

How the data were processed

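Total RNA of cardiac ventricles was sequenced in 9 libraries. Bowtie2 2.0, DESeq2 and build mm9 are named in the submitters' processing notes, and htseq-count is named as the counter, per the file headers. The annotation used, the strand setting and the handling of reads with several matches are not given in the sources used here. The authors deposited a table of normalized counts, a signal in which each count is divided by 1 factor per library, and for P6 also the count of each gene. Multiplied by its factor, 100% of values in each library were whole within 0.001, and the P6 reads obtained so matched the deposited count for 24364 of 24391 genes; the other 27 have date-like names that could not be matched. 1 further column of values was not used. Replicates differed by 5.32 to 152 chi-square per degree of freedom.

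Testing needed 10 or more normalized counts in 3 libraries. Values entered as log2(normalized count + 1), and the test was limma 3.58.1 (intensity trend, two-sided, R 4.3.3), using only both groups compared, with Benjamini-Hochberg adjustment over all genes and a threshold of 0.05. Fold changes are on that scale and understate those of low counts. Isozyme ratios were tested by exact permutation. Levels per kilobase used exon lengths of GENCODE vM21. Alternatives were other pseudocounts, filters, scalings and fits, edgeR 4.0.16 and DESeq2 1.42.0 on the recovered reads, a replicate block, and each library left out. The scripts were tested on simulated data. Promoter sequences are from RefSeq (GRCm38.p6). With group means removed, same-numbered libraries of different groups correlated by -0.12 to 0.20 and differently numbered ones by -0.38 to 0.41. With 3 libraries per group these values cannot show whether the numbers pair libraries.

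The members and all gene lists were chosen with earlier results of these data known. Every member is accounted for. Of each other list the text names the called genes with the largest change, up to 3 per comparison; some genes that meet this rule are not reported here. Counts and intervals cover counting error or the spread between libraries only.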

Additional observations from a re-analysis of the deposited data

How the results depend on the processing

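At P6 against adult control, leaving out 1 library gave 4 to 5 genes higher and 23 to 24 lower, and a filter of at least 50 gave 3 higher. Total-count scaling gave 8 higher, and scaling to cardiomyocyte markers 12 higher and 13 lower. With stabilized beta-catenin against adult control, every alternative gave 0 called genes except DESeq2, with 1 higher, and 0 were called whichever library was left out. Against P6, leaving out 1 library gave 23 to 25 higher and 4 to 5 lower, the filter of at least 50 gave 2 lower, and the cardiomyocyte scale 15 higher and 10 lower. The fewer genes under the stricter filter follow from fewer genes tested; the cause of the other shifts was not tested. With the replicate block the counts were 5 higher and 24 lower, 0 and 0, and 25 higher and 4 lower in the 3 comparisons. Pfkfb1 against P6 was then called (0.87, adjusted p = 0.0228), and the block changed no other call of the glycolysis and glycogen genes. Counts near the filter, as for Aldoc and Pgam1, limit what depth can show.

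Signs turned for these log2 differences. At P6 against adult control they were Hk1 (-0.065) and Pfkfb3 (-0.021) with TMM, Hk1 (-0.024) with edgeR, Pfkfb3 (-0.082) with quantile normalization, and Gpi1 (0.37), Pfkl (0.38), Tpi1 (0.040), Pgk1 (0.46), Ldha (0.38), Gys1 (0.10), Phka1 (0.29) and Pkm (0.26) on the cardiomyocyte scale. With stabilized beta-catenin against adult control they were Eno3 (0.0014) with total-count scaling and Pfkfb2 (0.065), Pfkfb3 (0.018), Aldoa (0.016), Eno3 (0.13), Ldha (0.062) and Pygm (0.043) on the cardiomyocyte scale. Against P6 they were Hk1 (-0.078) and Pfkp (-0.057) with total-count scaling, Hk1 (-0.077) with quantile normalization, and Hk1 (-0.60), Gpi1 (-0.090), Pfkl (-0.17), Pfkp (-0.58), Pfkfb1 (-0.037), Pgk1 (-0.040), Ldha (-0.31), Gys1 (-0.28), Phka1 (-0.11), Pgm2 (-0.064) and Pkm (-0.11) on the cardiomyocyte scale. Leaving out 1 library gave ranges that cross 0 at P6 against adult control for Hk1 (-0.078 to 0.11) and Pfkfb3 (-0.0093 to 0.24). With stabilized beta-catenin against adult control it did so for Eno3 (-0.11 to 0.10), Ldha (-0.18 to 0.020), Phka1 (-0.083 to 0.13), Pfkfb2 (-0.33 to 0.058), Pfkfb3 (-0.21 to 0.041), Tpi1 (-0.11 to 0.17), Ugp2 (-0.18 to 0.26), Pkm (-0.061 to 0.086), Pfkl (-0.0054 to 0.13), Slc16a3 (-0.17 to 0.46) and Aldoa (-0.22 to 0.0037). Log2 ratios crossed 0 in the same way for Pygb to Pygm (-0.12 to 0.032) at P6 against adult control, Pfkfb3 to Pfkfb2 (-0.24 to 0.15) with stabilized beta-catenin against adult control and Pygb to Pygm (-0.12 to 0.046) against P6.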
